A study of Mus musculus with 2 samples.

Results

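The genes of glycolysis and of the hypoxia response were examined in long-term hematopoietic stem cells (LT-HSCs) of 2-year-old C57BL/6J mice labelled as wild type or as deleted for the stress kinase p38α, encoded by Mapk14. The set was a list of 39 genes grouped by function, with no threshold on a measured value in its rule. It held 4 glucose and lactate transporters, 18 glycolytic enzymes, 2 PFKFB regulators, 4 pyruvate dehydrogenase kinases, 4 subunits of the hypoxia-inducible factors (HIFs), 3 prolyl hydroxylases with the ubiquitin ligase subunit Vhl, and 3 hypoxia target genes. All 39 were among the 17194 genes measured, out of 22555 named genes on the array, and 38 of them gave a signal well above background on both arrays.

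Mice carried floxed p38α alleles (p38α fl/fl). In the group written p38αΔ/Δ they also carried CAG-CreERT2, a tamoxifen-activated Cre driven by a promoter active in nearly all tissues, so the deletion was not restricted to blood cells. Both groups received tamoxifen (TAM) at 50 to 60 weeks of age and were analysed 1 year later, and the p38α+/+ group (labelled WT) lacked Cre. CD150+CD48-Flt3-CD34- lineage-Sca-1+c-Kit+ marrow cells were sorted (the study's methods add CD41-), and RNA of each genotype was read on 1 Agilent 1-colour array, so no test between genotypes was possible and every difference below compares 2 arrays. The number of mice behind each array was not given in the sources used here, and the spread between mice is unknown.

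Glycolysis splits glucose into pyruvate in a chain of cytosolic reactions, and lactate dehydrogenase can turn that pyruvate into lactate. Quiescent HSCs are known for their reliance on glycolysis in a marrow niche low in oxygen, where pyruvate dehydrogenase kinases hold pyruvate back from the mitochondria. HIF-1α and HIF-2α are destroyed in the presence of oxygen, after prolyl hydroxylases of the Egln family mark them for Vhl. When oxygen is scarce, they pair with Arnt and switch on glucose transporters, glycolytic enzymes, Pdk1, Vegfa and Bnip3.

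Signals are given as log2 of the scanner's processed signal minus the 75th percentile of the same array, for the brightest probe of each gene, and differences are p38αΔ/Δ minus p38α+/+. Levels of different probes cannot be compared as RNA amounts on an array, so genes are set against each other by their differences. Brightness classes and summed marker levels, used below, describe probe signal only. In bulk cells, fewer expressing cells and less RNA per cell cannot be told apart. The scanner's own error for one probe was 0.20 log2 units of a difference (median of the 39 genes), and a difference between single spots varied by 0.14 (SD, from 399 probes printed at least 5 times). Neither error includes the spread between mice. The quartiles of the difference over all measured genes were -0.38 and 0.33, with a median of -0.03.

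Mapk14 did not differ between these arrays, so its signal gave no check of the genotype labels. Its brighter probe read 2.34 for p38α+/+ and 2.31 for the library labelled p38αΔ/Δ, and the other probe read 2.08 and 2.03. Which exons the deletion removes was not given in the sources used here, so it is not known whether either probe lies within them.

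Every one of the 18 glycolytic enzymes read lower on the p38αΔ/Δ array at its brightest probe, whereas 52.4% of all measured genes read lower by any amount. The median difference of the enzymes was -0.34, with a range from -1.001 to -0.04. The differences were small: 1 of the 18 reached 2-fold, where 6.71% of all genes were at least 2-fold lower, and 12 exceeded their own scanner error. The direction of the smallest ones depended on the scaling. Quantile normalization left 15 of 18 lower, and a loess curve between the arrays left 16 of 18 lower, with Aldoc and Eno1 turning under both and Aldoa under quantile normalization. Brightness moved with the direction across the whole array: 15 of the 18 enzymes lay among the brightest 25% of all measured genes, where the median difference was -0.09 and 59.0% of genes read lower. Differences of 2-fold were rarer among these bright genes than over all genes, with 30 of 4299 at least 2-fold lower. The part of brightness in the enzymes' difference beyond the loess curve was not tested.

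**Figure D1:**
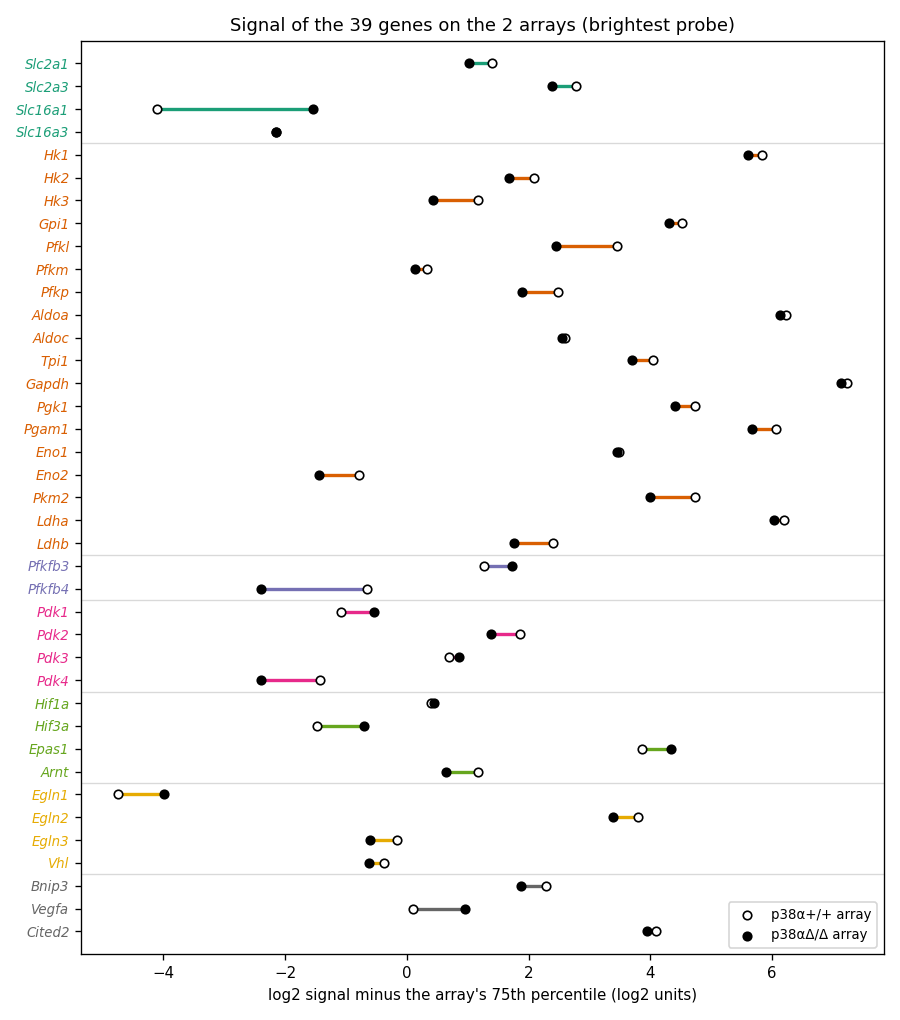
Each row is 1 gene. The x axis is log2 signal minus the array's 75th percentile. Open circles are the p38α+/+ array, filled circles the p38αΔ/Δ array and the line joins them. There is 1 array per genotype and rows are not comparable with each other. The filled circle lies left of the open one in all 18 glycolytic enzymes (orange), while Slc16a1 moves the other way.

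The enzymes are described in the order of the pathway. Hexokinases trap glucose in the cell as glucose 6-phosphate. Hk3 read 1.17 on the p38α+/+ array and 0.43 on the p38αΔ/Δ array, a difference of -0.74. Hk2 read 2.09 and 1.68, a difference of -0.41. Hk1, the housekeeping form, read 5.84 and 5.61, a difference of -0.23, but its 3 probes ranged from -0.55 to 0.10 and did not share a sign. Gpi1, the glucose phosphate isomerase, read 4.53 and 4.31, and its 3 overlapping probes lay between -0.33 and -0.20.

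Phosphofructokinase commits the sugar to glycolysis and has liver, muscle and platelet isoforms. Pfkl, the liver isoform, was the one enzyme at the 2-fold mark, with 3.45 on the p38α+/+ array and 2.45 on the p38αΔ/Δ array. Its fold of 2.001 sat on the threshold, and its single probe kept a difference between -1.02 and -0.91 under the other settings. Pfkp, the platelet isoform, read 2.48 and 1.90, a difference of -0.58, and its second probe also read lower, by -0.31. Pfkm, the muscle isoform, was printed 10 times on each array and read 0.33 ± 0.06 (SD over 10 spots) and 0.14 ± 0.09, so its difference of -0.20 exceeded the spread between spots of the same array but lay within its scanner error of 0.205.

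Aldolase and triose phosphate isomerase split the sugar and interconvert the products. Aldoa read 6.23 and 6.14, and Aldoc read 2.59 and 2.56, differences smaller than the scanner error. Tpi1 read 4.05 and 3.70 at its brightest probe, a difference of -0.35, and 2.72 and 1.50 at the other, a difference of -1.21. The direction was shared by both probes but the size was not.

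Gapdh, which oxidises glyceraldehyde 3-phosphate and often serves as a reference gene, read 7.24 on the p38α+/+ array and 7.14 on the p38αΔ/Δ array, a difference of -0.10. Its 8 probes ranged from -1.09 to 0.55. The file places 6 of them on mm9 chromosome 6 and 2 on chromosome 7, and closely related Gapdh copies elsewhere in the genome make this gene's values uncertain. Even neighbouring probes on chromosome 6 disagreed. Of 3 probes from one stretch of the gene, on the minus strand, the probe at chr6:125113312-125113371 differed by 0.14, the one at chr6:125113229-125113288 by -0.64 and the one at chr6:125112979-125113038 by -1.09. They are printed below with the lower Tpi1 probe (chr6:124761923-124761982, minus strand) to show what was captured where probes of one gene read differently, each being 60 bases long. No letter is capitalised, since no motif or mismatch is at issue.
Gapdh, difference 0.14: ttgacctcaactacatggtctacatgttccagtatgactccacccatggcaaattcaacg
Gapdh, difference -0.64: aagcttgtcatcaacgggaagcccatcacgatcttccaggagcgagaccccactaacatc
Gapdh, difference -1.09: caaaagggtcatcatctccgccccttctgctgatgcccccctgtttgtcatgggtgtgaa
Tpi1, difference -1.21: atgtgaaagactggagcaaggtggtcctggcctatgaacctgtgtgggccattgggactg

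The later enzymes pay back ATP and form pyruvate. Pgk1, phosphoglycerate kinase, read 4.73 and 4.41 (difference -0.32), with -0.33 at its second, overlapping probe. Pgam1, phosphoglycerate mutase, read 6.07 and 5.68, a difference of -0.40. Of the enolases, Eno1 was nearly equal on both arrays (3.49 and 3.45), and Eno2, the form best known from neurons, read -0.78 and -1.44, a difference of -0.66. The single Eno2 probe was dim, at 83.5 and 42.4 intensity units before scaling. When the background was corrected by normexp, the Eno2 difference was -0.31. Pkm2, pyruvate kinase, makes pyruvate. The current symbol of its gene is Pkm, and whether the probe separates the M1 and M2 transcripts is not known. It read 4.74 on the p38α+/+ array and 3.99 on the p38αΔ/Δ array, a 1.68-fold lower signal, close in size to the difference of Hk3. Lactate dehydrogenase is built from Ldha and Ldhb subunits. Ldha read 6.21 and 6.04 (difference -0.16), with all 3 of its probes lower, down to -0.57. Ldhb read 2.40 and 1.77, a difference of -0.63.

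Counting probes instead of genes gave a similar picture with exceptions. Of the 34 detected probes of the 18 enzymes, 31 read lower, with a median of -0.32, and the 3 that read higher were 2 Gapdh probes and 1 Hk1 probe. When the brightest probes were set aside, 13 of the remaining 16 read lower, with a median of -0.28. Several probes were detected for 7 enzymes, and in 5 of these 7 all probes read lower. Probes of one enzyme differed among themselves by 0.39 (pooled SD over those 7 genes), against 0.78 over the 5101 genes with several detected probes. These SDs were not matched for brightness, and the probes of Gpi1 and of Pgk1 overlap. Probes of a gene share the same RNA and are not replicates.

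**Figure D2:**
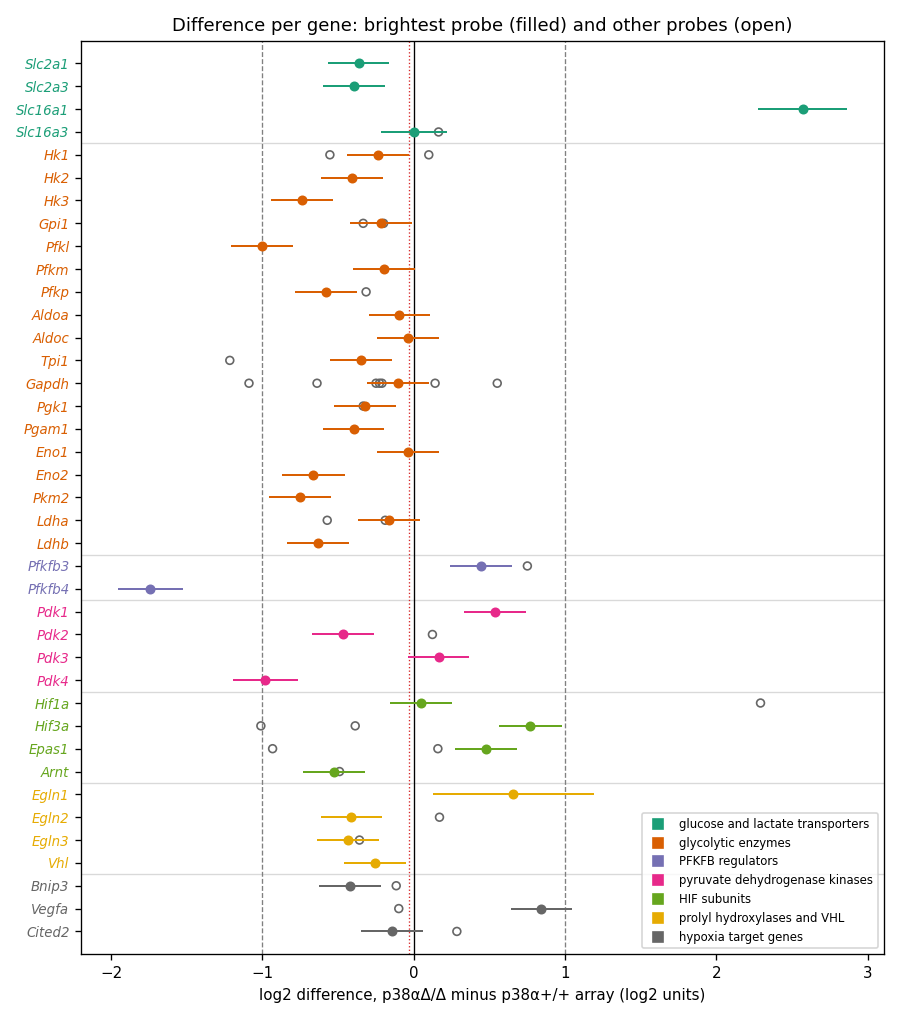
Each row is 1 gene. The x axis is the log2 difference, p38αΔ/Δ minus p38α+/+ array. Filled points are the brightest probe with the scanner's error of the difference as a bar, open circles the other probes detected on both arrays, dashed lines 2-fold and the dotted red line the median of all measured genes. All orange points lie left of 0, and in 8 of the 39 genes the detected probes lie on both sides of 0.

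The 21 other genes showed no common direction: 11 read lower and 10 higher, with a median of -0.14. Among all 39 genes 29 read lower, and the median was -0.25. At least 2-fold lower were 2 of the 39 (Pfkl and Pfkfb4), against 6.71% of all genes, and at least 2-fold higher was 1 of 39 (Slc16a1), against 4.11% of all genes. Both shares are near those of the whole array.

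The glucose transporters read lower. Slc2a1 (GLUT1), the basal glucose importer of blood cells, read 1.39 on the p38α+/+ array and 1.03 on the p38αΔ/Δ array, a difference of -0.36. Slc2a3 (GLUT3), a high-affinity importer, read 2.79 and 2.39, a difference of -0.39. Each rested on 1 probe.

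The monocarboxylate transporters did not follow them. Slc16a1 (MCT1), which carries lactate and pyruvate across the cell membrane, had the largest difference of the 39 genes. It read -4.11 on the p38α+/+ array and -1.54 on the p38αΔ/Δ array, which is 5.94-fold higher. Both signals were well above background by the scanner's flag but dim, 8.32 and 39.7 intensity units before scaling, and they came from a single spot of a single probe. When the background was corrected by normexp instead (offset 50), the difference was 0.81, below 2-fold. Slc16a3 (MCT4), the lactate exporter of glycolytic cells, read -2.15 on both arrays.

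The PFKFB enzymes set the level of fructose 2,6-bisphosphate, the strongest activator of phosphofructokinase, and the 2 of them went opposite ways. Pfkfb4 read -0.65 on the p38α+/+ array and -2.39 on the p38αΔ/Δ array, 3.34-fold lower. Its second, dimmer probe was below detection for p38αΔ/Δ and gave no measured difference. With normexp the Pfkfb4 difference was -0.73. Pfkfb3, the most kinase-active form, read 1.27 and 1.72, a difference of 0.45, and 0.75 at its second probe.

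Pyruvate dehydrogenase kinases inactivate the enzyme complex that feeds pyruvate into the citric acid cycle, and they split evenly. Pdk4, the form most tied to fasting and fat oxidation, read -1.43 and -2.41, a difference of -0.98, just short of 2-fold. That difference was -0.33 with normexp and -1.04 with loess. Pdk2 read 1.85 and 1.39 (difference -0.47), but its second probe differed by 0.12. Pdk1, a HIF-1 target, read -1.07 and -0.54, a difference of 0.54. Pdk3 read 0.70 and 0.86, a difference within its scanner error.

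The HIF subunits were the one group with more genes higher than lower, and their probes often disagreed. Epas1 (HIF-2α) read 3.87 on the p38α+/+ array and 4.35 on the p38αΔ/Δ array, a difference of 0.48, while its 2 other probes differed by -0.93 and 0.16. Hif3a, whose product can restrain the other HIFs, differed by 0.77 at its brightest probe and by -0.39 and -1.01 at the others. Averaging a gene's probes turned both to lower (-0.10 for Epas1 and -0.21 for Hif3a). Hif1a (HIF-1α) read 0.40 and 0.45 at its brightest probe, while a much dimmer probe, some distance upstream at mm9 chr12:75033965-75034024, read -3.12 and -0.82, a difference of 2.29. Arnt, the shared partner subunit, read 1.17 and 0.65, and both of its detected probes were lower (-0.52 and -0.49).

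Of the oxygen sensors, Egln2 (PHD1) read 3.79 and 3.38, a difference of -0.41, with 0.17 at its second probe. Egln3 (PHD3), itself a HIF target, read -0.17 and -0.60, and both of its probes were lower (-0.44 and -0.36). Vhl, which delivers hydroxylated HIF-α for degradation, read -0.37 and -0.62, a difference of -0.25. Egln1 (PHD2), the main HIF hydroxylase, did not clear the background on the p38α+/+ array, and its p38αΔ/Δ signal was at least 1.58-fold higher than the detection floor there. Its signals of 5.31 and 7.23 intensity units were at the edge of detection.

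The 3 hypoxia targets differed from one another. Vegfa, the angiogenic growth factor, read 0.11 on the p38α+/+ array and 0.95 on the p38αΔ/Δ array at a probe printed 2 times, a difference of 0.85, while its second probe differed by -0.10. Bnip3, a mitophagy receptor, read 2.29 and 1.87, a difference of -0.42 (-0.11 at the second probe). Cited2, which competes with HIF-1α for its coactivator and is needed for HSC maintenance, read 4.09 and 3.95, with -0.14 at one probe and 0.29 at the other. Over the whole set, 20 genes had several probes detected on at least 1 array, and these disagreed in sign in 8 genes and agreed in 12.

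**Figure D3:**
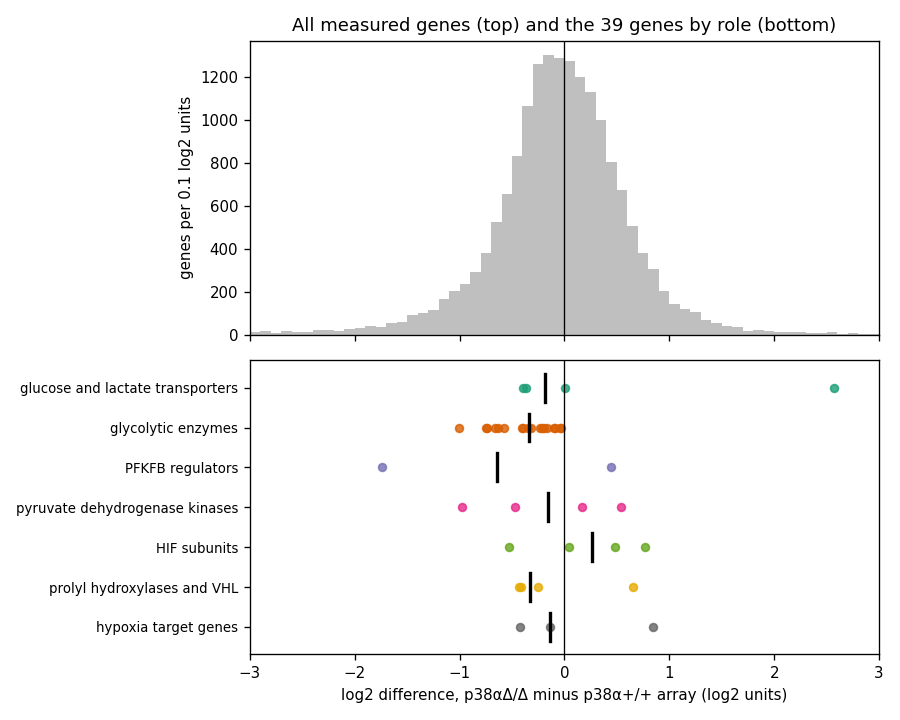
The x axis of both panels is the log2 difference, p38αΔ/Δ minus p38α+/+ array, cut at 3 in either direction. The top panel counts all measured genes in steps of 0.1 (17089 of 17194 lie within the axis), and the bottom panel shows 1 point per gene by role with the median as a black bar. The glycolytic enzymes lie on one side of 0, from -1.001 to -0.04, within the range of all genes.

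Each difference was also read under 10 other settings of background correction, scaling, probe choice and filtering. Of the 39 genes 32 kept their sign under every setting that measured them (Egln1 was measured under 8 of the 10), among them 15 of the 18 enzymes. The differences of Slc16a1 and Pfkfb4 moved most under normexp, and Hif1a and Hif3a moved most when probes were averaged.

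**Figure D4:**
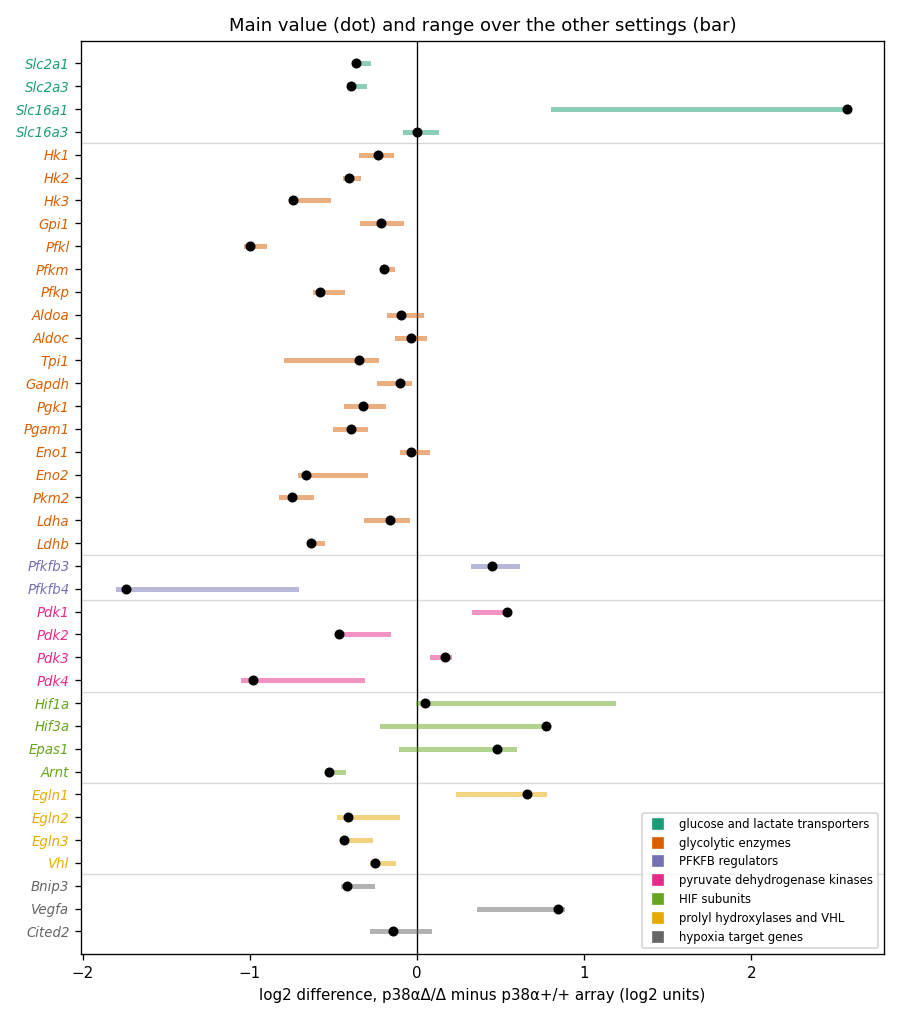
Each row is 1 gene. The x axis is the log2 difference, p38αΔ/Δ minus p38α+/+ array, the dot is the main value and the bar spans it and the other settings. Bars of 15 of the 18 glycolytic enzymes stay left of 0, and Slc16a1, Pfkfb4, Hif1a and Hif3a have the widest bars.

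The bases before the transcription starts of the 39 genes were searched for the core of the HIF binding site, ACGTG, and its variant GCGTG, on both strands. RefSeq windows (GRCm38.p6) of the 250 bases before a start were found for 37 of the 39 genes, Slc2a3 and Epas1 being the others, with 53 windows in all since some genes have several starts. ACGTG occurred in 24 of the 53 windows (45.3%), against 16.6% of all 32851 promoter windows of that length. It occurred in 10 of 29 windows of the glycolytic enzymes (34.5%). Windows of one gene can overlap and share a site, as for Aldoa. Counted by gene, 21 of the 37 genes and 8 of the 18 enzymes had ACGTG in at least 1 window. GCGTG occurred in 52.8% of the windows of the 39 genes, in 48.3% of those of the enzymes and in 28.2% of all windows. A match of 5 letters is not a binding site, and CACGTG, which also binds factors other than HIF, contains ACGTG on both strands. The list was chosen by name and holds known HIF targets, so its windows are not a random draw of promoters. Base composition was not matched between the windows compared, and the cause of the higher shares was not tested. Any relation of these matches to the differences between the arrays was not tested.

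The windows of the 3 genes with at least a 2-fold difference are shown with that of Ldha, which held the most ACGTG sites among the enzymes. Capitals mark ACGTG on either strand. Ldha (chr7:46845554-46845803, plus strand) had 3 sites, starting 145, 48 and 34 bases before the start, and 2 of them were CACGTG. Slc16a1 (chr3:104638414-104638663, plus strand) had 1 CACGTG, 200 bases before the start, and 2 GCGTG. Pfkl (chr10:78009808-78010057, minus strand) and Pfkfb4 (chr9:108991652-108991901, plus strand) had no ACGTG in these windows and 1 GCGTG each, which is not capitalised.
Ldha: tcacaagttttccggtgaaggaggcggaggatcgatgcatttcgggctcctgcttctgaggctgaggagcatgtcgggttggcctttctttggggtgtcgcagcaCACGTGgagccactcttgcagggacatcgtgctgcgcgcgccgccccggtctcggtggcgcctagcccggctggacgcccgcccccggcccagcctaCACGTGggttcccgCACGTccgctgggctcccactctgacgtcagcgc
Slc16a1: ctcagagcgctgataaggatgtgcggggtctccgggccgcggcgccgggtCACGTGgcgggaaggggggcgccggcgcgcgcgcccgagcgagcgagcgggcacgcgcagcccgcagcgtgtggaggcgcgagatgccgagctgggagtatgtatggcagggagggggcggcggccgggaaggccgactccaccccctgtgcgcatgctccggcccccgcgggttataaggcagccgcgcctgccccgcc
Pfkl: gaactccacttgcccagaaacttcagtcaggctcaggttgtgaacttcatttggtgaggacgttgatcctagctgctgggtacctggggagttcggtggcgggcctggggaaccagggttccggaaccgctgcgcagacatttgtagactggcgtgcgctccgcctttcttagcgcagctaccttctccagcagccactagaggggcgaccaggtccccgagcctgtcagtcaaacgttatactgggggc
Pfkfb4: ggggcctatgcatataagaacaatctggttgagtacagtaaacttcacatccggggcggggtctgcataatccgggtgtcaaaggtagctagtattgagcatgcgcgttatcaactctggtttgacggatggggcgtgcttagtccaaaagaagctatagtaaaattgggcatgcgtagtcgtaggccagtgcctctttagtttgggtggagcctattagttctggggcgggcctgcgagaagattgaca

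Genes around the 39 were read from 6 further lists. Of 19 other glycolytic enzymes and regulators, 15 were measured, 10 read lower and the median was -0.25. Ldhd, which oxidises D-lactate, differed by -1.25 and Galm, galactose mutarotase, by -1.34, and none was at least 2-fold higher. Galm rested on 1 dim probe that read -2.63 and -3.97, with a detection floor of -4.78 on the p38αΔ/Δ array. In the pentose phosphate pathway, which branches off at glucose 6-phosphate, Pgls (6-phosphogluconolactonase) differed by -1.51, while the median of the 8 genes was -0.11. None of the 8 genes of the pyruvate dehydrogenase complex and its phosphatases reached 2-fold, and they ranged from Pdpr at -0.54 to Dlat at 0.56.

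Bsg (basigin), the chaperone that brings MCT1 and MCT4 to the membrane, read 3.09 on the p38α+/+ array and 1.69 on the p38αΔ/Δ array, 2.64-fold lower, opposite to Slc16a1. It was the only one of the 12 measured other glucose and monocarboxylate carriers past 2-fold in the main setting, and Slc16a7 (MCT2) came next at 1.00, just under the threshold, with 5 probes from -3.35 to 1.61. Among 15 measured HIF pathway regulators, the collagen prolyl hydroxylase P4ha1 was at least 2.52-fold lower, and the median was -0.23. Of 40 other hypoxia response genes 35 were measured, with 19 lower, 16 higher and a median of -0.05. Narf was lower by -1.23, and Tmem45a, at 0.93, was the highest. Each rested on 1 dim probe, which read -2.43 and -3.66 for Narf and -3.52 and -2.58 for Tmem45a. In all 6 lists 58 of 93 measured genes read lower, 6 at least 2-fold, and none was at least 2-fold higher, beside 52.4%, 6.71% and 4.11% of all measured genes.

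Cell type markers also differed between the arrays, and their part in the glycolytic differences was not tested. For the counts below, 9004 of all 17194 measured genes read lower and 8190 higher. Among the dimmest 25% of genes, 2387 of 4299 read higher. All 13 HSC markers were well above background on both arrays but 12 of 13 read lower on the p38αΔ/Δ array (median -0.54). The lowest was Mecom at -1.44, but its 3 detected probes ranged from -1.44 to 0.61. The summed level of the HSC markers was 7.33 in p38α+/+ and 7.01 in p38αΔ/Δ cells. In this and the other lists the brightest probes dominate the summed level. Of 14 neutrophil and myeloid markers 11 read higher (median 1.10, summed level 8.63 and 9.09), from Elane at -1.41 to Ltf at 2.23 among those measured on both arrays, and 12 were detected for p38α+/+ and 14 for p38αΔ/Δ. All 9 B cell markers read higher (median 0.69, summed level 1.96 and 4.25), from Cd79b at 0.09 to Jchain at 3.75, with Ms4a1 and Ebf1 below detection for p38α+/+. The labelled gate leaves out lineage-marked cells, and the lineage mixture in the study's methods held Mac-1, CD4 and CD8 among others. Itgam (Mac-1), Cd4 and Cd8a were detected on both arrays and differed by 0.42, 0.74 and 0.57. The probes of Itgam ranged from -0.42 to 0.88 and those of Cd4 from -0.01 to 0.74. CD48, CD34 and Flt3 are 3 further proteins that the gate leaves out, and their transcripts were detected on both arrays. Cd48 differed by 1.37, with 0.19 at its other probe. Flt3 differed by 0.36, with 3 probes from -0.07 to 0.88, and Cd34 by -0.15, with -0.997 at its other probe. With 1 array per genotype, genotype and any difference between the sorts cannot be told apart.

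**Figure D5:**
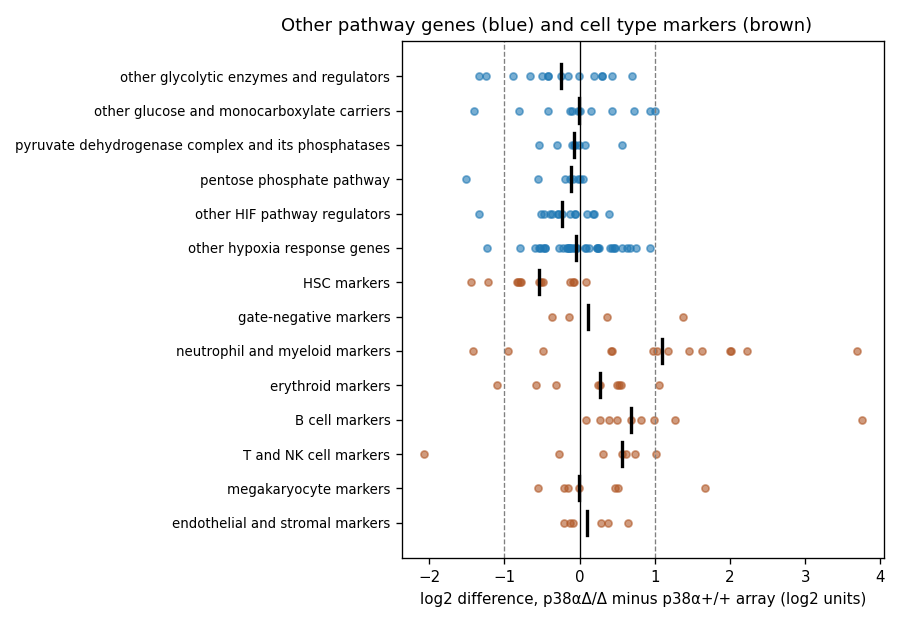
Each point is 1 gene and each row 1 list. The x axis is the log2 difference, p38αΔ/Δ minus p38α+/+ array, black bars are medians and dashed lines mark 2-fold. Pathway lists (blue) have medians from -0.25 to -0.01, while HSC markers (brown) have -0.54 and neutrophil and myeloid markers 1.10.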

How the data were processed

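LT-HSC RNA of each genotype was labelled with Cy3 and read on 1 Agilent array. The deposited scanner files hold spot intensity from Agilent Feature Extraction 11.5.1.1 (background-subtracted, detrended), on mm9 coordinates. The authors' normalized table holds log2 signal minus 1 constant per array (7.16 and 6.84), and its 35795 probes served as an alternative. Here, control and flagged spots were dropped, spots of a probe averaged, log2 intensity was centred on each array's 75th percentile, and the brightest probe per gene kept if well above background on at least 1 array. A dimmer signal was raised to the array's lowest well-above-background signal, giving a bound. Of 55662 probes, 57.1% were named through RefSeq accessions or symbols, and 67.9% (p38α+/+) and 69.0% (p38αΔ/Δ) were well above background. No spot was saturated. With 1 array per group no test was run, the number of arrays limits precision, and "called" means at least 2-fold. Both arrays shared 1 slide and scan.

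All members, the 6 pathway lists and the 8 cell type lists (HSC, gate-negative, neutrophil and myeloid, erythroid, B, T and NK, megakaryocyte, endothelial and stromal) were chosen with earlier results of these data known. All 39 members were named. Of each other list, genes past 2-fold or else the extremes were named. For cell lists these were the extremes measured on both arrays, with transcripts of proteins that the gate leaves out. The highest HSC marker is not reported here. Alternatives used limma 3.58.1 in R 4.3.3 (normexp) and Python 3.11.15. The steps were tested on simulated data.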

Additional observations from a re-analysis of the deposited data

How the results depend on the processing

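Of the 10 alternatives tried, none changed the sign of a gene with at least a 2-fold difference, and 32 of 39 genes kept their sign wherever measured (Egln1 in 8 of 10). Aldoa, Aldoc, Eno1, Slc16a3, Cited2, Epas1 and Hif3a changed sign in at least 1. The median of the enzymes ranged from -0.38 (normexp) to -0.23 (quantile), while that of all genes ranged from -0.13 (no filter on dim probes) to 0.05 (normexp), with 63.2% and 44.5% of genes lower. Genes at least 2-fold lower numbered 1 in place of 2 with normexp, quantile normalization, the authors' values, the mean of a gene's probes, or flagged spots kept. Loess left 2, but these were Pfkfb4 (-1.79) and Pdk4 (-1.04), with Pfkl at -0.91. Genes at least 2-fold higher numbered 0 with normexp and 2 with the mean of probes, in place of 1. Normexp moved the PFKFB median to -0.20. The mean of probes moved the medians to -0.18 (PFKFB), -0.0039 (pyruvate dehydrogenase kinases), -0.15 (HIF subunits), -0.19 (hydroxylases and Vhl) and 0.072 (hypoxia targets). The cause was not tested. No paired analysis was possible because each group has 1 array, and for the same reason no array could be left out. Signals near background, as for Slc16a1 and Egln1, set the limit for single genes.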

Other observations

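The remaining cell type lists gave these values, beside 8190 of all 17194 measured genes that read higher. Of 9 measured erythroid markers 6 read higher (median 0.27), from Hbb-bt at -1.10 to Slc4a1 at 1.06. Of 7 measured T and NK cell markers 5 read higher (median 0.57), from Cd2 at -2.07 to Cd3e at 1.02. The 7 megakaryocyte markers had a median of 0.00, from Vwf at -0.55 to Ppbp at 0.51 among those measured on both arrays. The 6 measured endothelial and stromal markers ranged from Cxcl12 at -0.20 to Col1a2 at 0.64. Of 4 listed markers of excluded cells (CD48, CD34 and Flt3, with CD41 from the methods, and no lineage markers), Itga2b was lowest at -0.37 and Cd48 highest.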
